A study of Homo sapiens with 16 samples.

Results

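Fibrinogen, the soluble precursor of the fibrin clot, is built from 3 chains, and the genes of these chains are described here in edited HepG2 cells: FGA (Aα chain), FGB (Bβ chain) and FGG (γ chain). They are 3 of the 16558 genes in the deposited table of normalised read counts and were picked by symbol. Their levels under palmitic acid were known when they were picked. Their differences between treated and control cells are therefore a description. Where a fit over all genes is quoted for this contrast, its calls only place the chains in the table and support nothing. All 3 passed the filter on low values, which asked for an average of 1 CPM unit or more over the 16 libraries and kept 13095 genes. A unit here is a count per 1e6 reads with the authors' scaling between libraries.

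HepG2 is an established human liver cancer line with hepatocyte features. The study edited it by prime editing at codon 148 of PNPLA3, a lipid droplet protein, where the G allele encodes methionine (I148M) and the C allele isoleucine. The libraries came from 3 GG clones (numbers 1, 2 and 6), 3 GC clones (numbers 2, 3 and 4) and 2 CC clones (numbers 1 and 3), where GG carries the variant on both alleles. Each clone gave 1 library after palmitic acid, a saturated fatty acid, at 250 µM for 48 h by the labels' protocol, and 1 control library. The labels of the single treated libraries read 48 to 50 h in GG, 51 to 53 h in GC and 54 to 55 h in CC. These hours rise by 1 h per library in sample order, and an entry error and real times cannot be told apart. The vehicle of the control cells, and whether each numbered line grew from a single cell, are not stated in the labels. A clone is the unit of replication, and n counts clones.

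As background, hepatocytes pair each of the chains, joining them by disulfide bonds into a dimer of trimers that is secreted into plasma. Thrombin cuts short peptides from the Aα and Bβ chains, after which the molecules polymerise, and factor XIII crosslinks them. In liver the 3 genes are expressed together under hepatocyte factors such as C/EBP proteins, and they rise in the acute phase through interleukin-6 and STAT3.

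In GRCh38 the genes form a cluster of 50.0 kb on chromosome 4. FGB (ENSG00000171564.11) lies on the plus strand at chr4:154562956-154571086. FGA (ENSG00000171560.14) lies on the minus strand at chr4:154583126-154590766, beginning 12.0 kb beyond FGB. FGG (ENSG00000171557.16), also on the minus strand, lies at chr4:154604134-154612967, another 13.4 kb further on. The positions are those of GENCODE release 29, and all 3 genes are annotated as protein coding.

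The 250 bases upstream of a RefSeq start of each gene are shown. The reason is that the 3 genes moved in the same direction in most clones and are known to share regulators. These starts differ from those of the GENCODE genes above. The FGG window lies wholly inside the GENCODE gene, and the FGA and FGB windows partly so. The sequences are RefSeq's, on GRCh38.p14, read 5′ to 3′ on the strand of the gene, with the last base next to the start. Capitals mark every match, on either strand, to the 5 motifs searched.
FGA, chr4:154590743-154590992, minus strand: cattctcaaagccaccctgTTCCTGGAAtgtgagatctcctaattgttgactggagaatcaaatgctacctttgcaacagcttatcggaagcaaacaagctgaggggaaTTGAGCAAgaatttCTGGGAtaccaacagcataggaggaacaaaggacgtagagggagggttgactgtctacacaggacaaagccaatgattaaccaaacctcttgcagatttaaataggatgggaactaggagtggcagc
FGB, chr4:154562730-154562979, plus strand: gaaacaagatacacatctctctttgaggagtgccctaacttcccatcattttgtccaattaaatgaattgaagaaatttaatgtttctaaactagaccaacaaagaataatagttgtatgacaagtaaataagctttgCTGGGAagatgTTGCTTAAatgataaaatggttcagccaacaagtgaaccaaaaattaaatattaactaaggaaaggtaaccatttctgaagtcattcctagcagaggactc
FGG, chr4:154612657-154612906, minus strand: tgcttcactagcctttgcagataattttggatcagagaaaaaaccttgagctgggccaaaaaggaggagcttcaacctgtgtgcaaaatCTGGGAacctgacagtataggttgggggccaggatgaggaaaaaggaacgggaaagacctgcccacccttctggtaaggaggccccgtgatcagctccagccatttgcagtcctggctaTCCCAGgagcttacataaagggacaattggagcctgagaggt

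Positions in these windows are counted from -1 at the base before the RefSeq start. CTGGGA, the core of the interleukin-6 response element described in acute phase genes, was found in all 3 windows: at -127 to -122 in FGA, at -112 to -107 in FGB, and at -161 to -156 and, on the reverse strand, -42 to -37 in FGG. It was also found in 28.7% of 35116 RefSeq promoter windows of the same length. TTGCNNAA, a C/EBP-like sequence, was found at -141 to -134 in FGA on the reverse strand and at -101 to -94 in FGB, against 9.05% of all windows. TTCNNNGAA, a STAT-type palindrome, was found in FGA alone among the 3, at -231 to -223, against 6.57% of all windows. CACGTG (6.34% of all windows) and TATAAA (10.7%) had no match in the 3 windows, and the matches did not overlap each other. The motifs were picked after the sequences had been seen. For FGB, RefSeq lists a second start a short way downstream, and the window of the upstream start is shown.

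Library depth ran from 9314342 to 15777669 reads. The 3 chains had 2120 to 46103 reads each in the treated libraries and 6205 to 83200 in the controls. Together they made up 0.114 to 0.607% of the total signal under palmitic acid (median 0.315%) and 0.417 to 1.15% in control cells (median 0.657%). All 12 listed hepatocyte markers passed the filter. Their summed level was 16097 to 36716 units under palmitic acid and 19090 to 40902 in control cells, and in a limma fit with the clone as a block 0 of the 12 rose and 5 fell at an adjusted p under 0.05, ALB (albumin) among them at -0.40 on the log2 scale. In the same fit 18.9% of all tested genes were called, 9.52% as lower, and without the block 0 of the 12 were called, with 1 at an unadjusted p under 0.05 and 0 called by edgeR or DESeq2. ALB itself ran from 20.6 to 820 units under palmitic acid and from 17.7 to 807 in control cells. Of the platelet list (4 genes; platelets also carry fibrinogen), 1 was in the table, ITGA2B, under the filter. In bulk RNA, fewer cells that express a gene and less RNA per cell cannot be told apart.

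FGB, whose chain is often described as limiting for hexamer assembly in HepG2 cells, was lower under palmitic acid in 8 of 8 clones. In GG clones 1, 2 and 6 it stood at 363, 1205 and 880 units under palmitic acid and at 1259, 2405 and 1551 units in control cells. In GC clones 2, 3 and 4 it stood at 1015, 570 and 448 units under palmitic acid and at 2484, 1788 and 1606 units in control cells. The treated and control values did not overlap within GG or within GC, where 2.65% and 5.69% of all tested genes had every treated library below every control. In CC clones 1 and 3 FGB was at 1976 and 230 units under palmitic acid and at 4820 and 1243 units in control cells. The treated CC clone 1 library thus lay above the control library of CC clone 3. Of the 8 treated libraries, 7 lay below all 8 controls, and the same count was 3 for FGA and 4 for FGG. At least 7 such libraries were found in 0.382% of all tested genes, at least 3 in 10.8% and at least 4 in 4.76%. The log2 changes were -1.79, -0.997 and -0.82 in GG (mean -1.20 ± 0.52 SD, n = 3), -1.29, -1.65 and -1.84 in GC (-1.59 ± 0.28, n = 3), and -1.29 and -2.43 in CC (-1.86 ± 0.81, n = 2). As a percentage of the control value, the FGB change ran from -81.5 to -43.3%, with a median of -63.6%.

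FGG, whose product carries binding sites for platelets and for factor XIII crosslinking, was also lower under palmitic acid in 8 of 8 clones. Its GG values were 1106, 3424 and 2268 units under palmitic acid and 2526, 4612 and 3183 units in control cells. Its GC values were 2605, 1547 and 978 units under palmitic acid and 5279, 3688 and 2137 units in control cells. In both genotypes the treated clone with the highest level lay above the control clone with the lowest. In the CC clones FGG stood at 2725 and 632 units under palmitic acid and at 5263 and 2852 units in control cells. Only in CC were treated and control libraries apart, as they were for 12.7% of all tested genes with 2 clones. The log2 changes were -1.19, -0.43 and -0.49 in GG (mean -0.70 ± 0.42 SD, n = 3), -1.02, -1.25 and -1.13 in GC (-1.13 ± 0.12, n = 3), and -0.95 and -2.17 in CC (-1.56 ± 0.86, n = 2). In percent of the control value, the FGG change ran from -77.8 to -25.8%, with a median of -52.4%.

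FGA, whose Aα chain carries the N-terminal peptide first released by thrombin, was lower under palmitic acid in 7 of 8 clones. In GG it stood at 230, 1516 and 617 units under palmitic acid and at 529, 2510 and 581 units in control cells, so that clone 6 was 6.26% higher when treated. In GC it stood at 1136, 561 and 237 units under palmitic acid and at 2801, 1390 and 499 units in control cells. The groups overlapped in GG and in GC, where the clones lay farther apart than treatment moved them. In CC, FGA was at 827 and 287 units under palmitic acid and at 1431 and 1850 units in control cells, without overlap, as in 12.7% of all tested genes. The log2 changes were -1.20, -0.73 and 0.09 in GG (mean -0.61 ± 0.65 SD, n = 3), -1.30, -1.31 and -1.07 in GC (-1.23 ± 0.13, n = 3), and -0.79 and -2.69 in CC (-1.74 ± 1.34, n = 2). In percent of the control value, the FGA change ran from -84.5 to 6.26%, with a median of -54.6%. The 3 GC clones were close to each other, whereas the GG clones and the CC clones were not.

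The limma estimate of the palmitic acid change gave the 3 genotypes equal weight, so that each CC clone counted for more. Plain means over the 8 clones were -1.51 for FGB, -1.13 for FGA and -1.08 for FGG. On the log2(value + 0.5) scale the limma estimate was -1.55 for FGB, -1.19 for FGA and -1.13 for FGG. Its SE was 0.44, 0.53 and 0.36 in that order when the 16 libraries were treated as unpaired, and 0.13, 0.18 and 0.13 with the clone as a block. The treated and control library that share a genotype and number are from the same clone. At an adjusted p under 0.05 the unpaired fit called 0 of the 3 chains, where 0.0458% of all tested genes were called, and all 3 had an unadjusted p under 0.05. The blocked fit called 3 of the 3, where 18.9% of all tested genes were called in either direction and 9.52% as lower. Since the chains were picked for this contrast, these counts describe them and support nothing further. In size of fall, FGB was number 6 of 13095 tested genes, FGA number 26 and FGG number 28. Among the 2245 genes that averaged 100 units or more they were numbers 3, 6 and 7. Lower values in all 8 clones, as in FGB and FGG, were found in 6.79% of the tested genes.

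CC clone 3 had the lowest change of all 8 clones for each chain, at -2.69 for FGA, -2.43 for FGB and -2.17 for FGG. Its treated library had the fewest reads of the 16 (9314342) and the fewest genes detected (15662). CC clone 3 stood apart over the whole table as well, and the part of read depth in that was not tested. The SD of its log2 changes, treated over control, over all tested genes was 0.57, against 0.31 to 0.40 in the other 7 clones. Without it, the changes ran from -1.31 to 0.09 for FGA (median -1.07), from -1.84 to -0.82 for FGB (median -1.29) and from -1.25 to -0.43 for FGG (median -1.02), and the estimates over genotypes were -0.88, -1.36 and -0.93. With this clone left out, the CC arm is a single clone, so only these sizes are given.

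The chains did not move by the same amount within a clone. The FGB change was lower than the FGG change in 8 of 8 clones, the difference in log2 change running from -0.71 to -0.26 with a median of -0.37. The FGA change was smaller in size than the FGB change in 6 of 8 clones, with differences from -0.25 to 0.91. Between FGA and FGG the order varied, with differences from -0.51 to 0.58. FGB had the lowest change in 6 clones and FGA in 2 (GC clone 2 and CC clone 3).

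The same differences can be read as ratios of the chains' units within a library, which restate them on a linear scale and show the level of each library. The FGG to FGB ratio under palmitic acid was 3.05, 2.84 and 2.58 in GG, 2.57, 2.71 and 2.18 in GC and 1.38 and 2.75 in CC. In control cells it was 2.01, 1.92 and 2.05 in GG, 2.12, 2.06 and 1.33 in GC and 1.09 and 2.29 in CC. The ratio was higher under palmitic acid in every one of the 8 clones, yet the treated CC clone 1 and some controls overlapped. The FGA to FGB ratio was 0.634, 1.26 and 0.701 in GG, 1.12, 0.983 and 0.529 in GC and 0.419 and 1.25 in CC under palmitic acid. In control cells it was 0.421, 1.04 and 0.374 in GG, 1.13, 0.778 and 0.311 in GC and 0.297 and 1.49 in CC. It was higher under palmitic acid in 6 of 8 clones and differed more between clones than between treatments. Since each ratio is taken within a library, the scaling between libraries does not enter it.

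**Figure D1:**
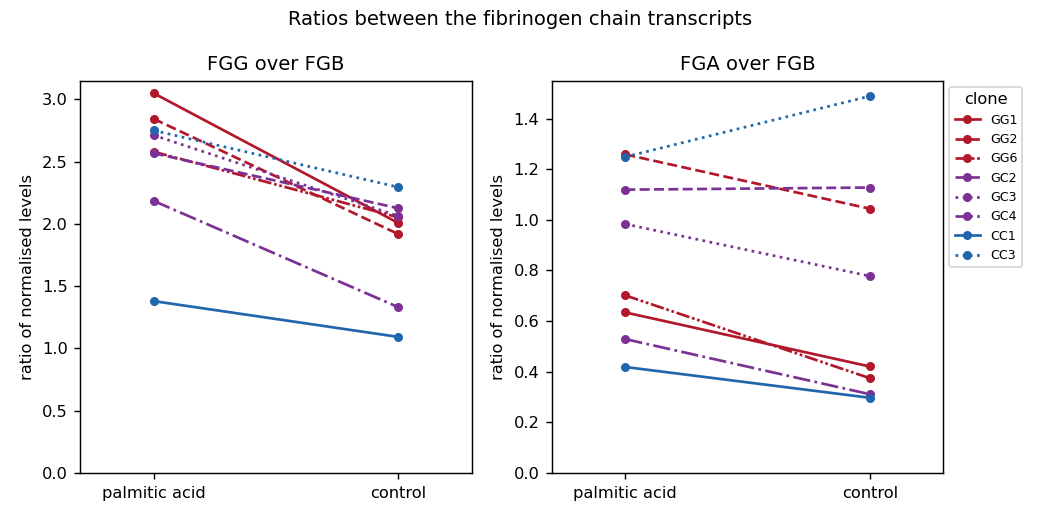
Ratios of FGG to FGB and of FGA to FGB, in units over units within a library, on a linear axis. A line for each clone runs from palmitic acid to control. The FGG to FGB ratio is higher under palmitic acid in 8 of 8 clones and the FGA to FGB ratio in 6 of 8.

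Per base of transcript, the 3 chains could be set against each other. With the lengths of the principal GENCODE transcripts (3678 bases for FGA, 1975 for FGB and 1760 for FGG), FGG made up 65.3 ± 4.50% of the 3 chains under palmitic acid and 59.6 ± 4.67% in control cells (mean ± SD, n = 8 each). FGB made up 24.1 ± 5.22% under palmitic acid and 29.8 ± 6.53% in control cells, and FGA 10.6 ± 2.98% and 10.6 ± 5.00%. With these lengths the order FGG, FGB, FGA held in 8 of 8 treated and 8 of 8 control libraries. The FGB share was lower under palmitic acid in 8 of 8 clones, by 1.84 to 10.8 percentage points, and the FGG share higher in 8 of 8. These levels depend on the length used: with the shorter FGA transcript FGA-202 (2248 bases), FGB was the lowest chain in 2 treated libraries and 1 control library, and the FGA share under palmitic acid became 16.2%. With the union of exons of each gene, FGB was the highest chain in 1 control library, CC clone 1, and the lowest in another, CC clone 3.

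The clones differed widely from each other in both treatments. Under palmitic acid the highest clone exceeded the lowest 6.59-fold for FGA (GG clone 2 over GG clone 1), 8.59-fold for FGB (CC clone 1 over CC clone 3) and 5.41-fold for FGG (GG clone 2 over CC clone 3). In control cells the same spread was 5.61-fold for FGA (GC clone 2 over GC clone 4), 3.88-fold for FGB (CC clone 1 over CC clone 3) and 2.47-fold for FGG (GC clone 2 over GC clone 4). In 5 of these 6 cases both ends belonged to clones of the same genotype. The chains did not order the clones alike: CC clone 1 had the highest FGB in control cells, 4820 units, but 1431 units of FGA, below 3 other clones.

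Whether PNPLA3 genotype went with the level of the chains was a question the design also poses, and no difference between genotypes passed the test. Under palmitic acid FGA averaged 788 ± 660 units in GG clones, 645 ± 455 in GC clones and 557 ± 382 in CC clones, FGB 816 ± 424, 678 ± 298 and 1103 ± 1234, and FGG 2266 ± 1159, 1710 ± 826 and 1679 ± 1480 (SD, n = 3, 3 and 2). In control cells FGA averaged 1207 ± 1129 units in GG clones, 1564 ± 1161 in GC clones and 1641 ± 297 in CC clones, FGB 1738 ± 596, 1959 ± 464 and 3032 ± 2529, and FGG 3440 ± 1067, 3701 ± 1571 and 4057 ± 1705. The clone values of the 3 genotypes overlapped for each chain in both treatments. Of the 9 comparisons of a chain between 2 genotypes under palmitic acid, 0 were called by limma with Benjamini-Hochberg adjustment (adjusted p 0.919 to 0.999), and of the 9 in control cells 0 were called (0.927 to 1.000). None of these had an unadjusted p under 0.05, and edgeR and DESeq2 called 0 as well. Of all tested genes, 0.00764% were called for GG against CC and for GC against CC under palmitic acid, and 0% in the other 4 comparisons.

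These data bound the genotype differences only loosely. For GG over CC the 95% interval of the log2 difference was -1.74 to 2.34 for FGA, -1.61 to 1.83 for FGB and -0.75 to 2.03 for FGG under palmitic acid. In control cells it was -2.86 to 1.21 for FGA, -2.27 to 1.17 for FGB and -1.60 to 1.17 for FGG. Differences of more than 2-fold in either direction lay inside most of these intervals, so the genotypes are not shown to be alike.

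The palmitic acid change itself was also compared between genotypes. The mean change was smaller in size in GG than in GC and smaller in GC than in CC for each chain, but the CC means rest on 2 clones that lay far apart, as given above. The hours on the labels of the treated libraries run in the same order of genotypes, and genotype and these hours, if real, cannot be told apart. For GG minus CC the difference in change was 1.12 ± 1.33 (SE) for FGA, 0.66 for FGB and 0.86 for FGG, and 0 of the 9 differences between genotypes were called (adjusted p 1.000, limma, with 0 at an unadjusted p under 0.05 and 0 called by edgeR or DESeq2). Of all genes, 0.00764% were called for GG minus CC and for GC minus CC, and 0% for GG minus GC. With the clone as a block the intervals narrowed to 0.11 to 2.14 for FGA, -0.09 to 1.40 for FGB and 0.14 to 1.57 for FGG, and 0 of 9 were called, 2 of them with an unadjusted p under 0.05 (FGA and FGG, adjusted p 0.797). The value turned on which CC clone was kept. Without CC clone 1 the blocked GG minus CC difference was 2.07 ± 0.35 for FGA (adjusted p 0.0120), 1.47 ± 0.27 for FGG (0.0176) and 1.23 ± 0.32 for FGB (0.0599). In that fit 3.71% of all genes were called, and the CC arm is a single clone assumed to vary like the other groups. Without CC clone 3 it was 0.18, 0.25 and 0.084 in the same order of chains (adjusted p 1.000). The wide change in CC clone 3 thus moves with the genotype difference, and its part in the result was not tested beyond these values.

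Across the 16 libraries, FGB and FGG had the profiles most like each other. Likeness was measured as the root mean square difference between centred log2 profiles among 10841 genes that averaged 5 units or more. FGG was the nearest gene to FGB and FGB the nearest to FGG, at 0.41. FGG was also the nearest gene to FGA, at 0.55, although FGA was number 13 from FGG. FGA and FGB were 0.75 apart, where FGB was number 5 from FGA and FGA number 15 from FGB.

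The genes outside the cluster most like the mean profile of the 3 chains were ZNF431, a zinc finger gene (0.60), TNFSF10, encoding the death ligand TRAIL (0.61), MPC1, a subunit of the mitochondrial pyruvate carrier (0.62), CIDEB, a lipid droplet and lipoprotein factor (0.62), and RASSF4 (0.62). A flat profile lay at 0.97 and the median gene at 1.00. Their palmitic acid changes were -0.66 ± 0.12, -1.06 ± 0.14, -0.75 ± 0.07, -0.38 ± 0.09 and -0.65 ± 0.11 in that order (log2, SE with the clone as a block). The likeness measure used the treatment difference too, so a shared fall is part of how these genes were found.

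Genes near the cluster were measured as well. Within 1 Mb, 43 other genes are annotated, of which 3 were in the table and 2 passed the filter. PLRG1, a spliceosome component 12.5 kb from the FGB end of the cluster, had a median of 45.5 units under palmitic acid and 48.7 in control cells, a change of -0.05 ± 0.08 (SE, adjusted p 0.708, blocked limma fit). TLR2, an innate immune receptor 857 kb away, had a change of -0.08 ± 0.17 (adjusted p 0.777). Neither neighbour was called, in a fit that called 18.9% of all tested genes, so 2 genes can show little. The chains, picked with their levels known, had estimates at or below -1.13.

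The known regulators of the fibrinogen genes did not move in one direction. Of 24 listed and tested, 4 rose, 7 fell and 13 did not pass the test in the blocked fit (adjusted p under 0.05), with a median change of 0.01, against 18.9% of all genes called (9.33% up, 9.52% down) and a median of -0.01. On the interleukin-6 side, IL6R, the receptor subunit, rose by 0.82 ± 0.15 (log2, SE), JAK1, its kinase, by 0.52 ± 0.07 and PIAS3, an inhibitor of STAT3, by 0.52 ± 0.12. STAT3 itself had a change of 0.09 ± 0.05 (adjusted p 0.233), and SOCS3, a feedback inhibitor that STAT3 induces, 0.14 ± 0.12 (0.431). CREB3L3, a liver transcription factor activated at the endoplasmic reticulum and by fatty acids, rose by 0.95 ± 0.15, with medians of 10.7 units under palmitic acid and 4.75 in control cells. Among hepatocyte factors, ONECUT1 (HNF6) fell by 0.78 ± 0.14 and NR1H4, the bile acid receptor FXR that induces fibrinogen genes in human cells, by 0.72 ± 0.13. Smaller falls were called in CEBPB (-0.46 ± 0.10), PPARA (-0.37 ± 0.09), CEBPA (-0.33 ± 0.07), HNF4A (-0.27 ± 0.08) and NR3C1, the glucocorticoid receptor (-0.26 ± 0.07).

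Among genes for the folding, modification and export of the hexamer, the called changes were small. Of 20 tested, 2 rose, 4 fell and 14 did not pass the test, so that 30.0% were called, against 18.9% of all genes, and the median was -0.06. EDEM1, which directs misfolded glycoproteins to degradation, rose by 0.41 ± 0.07, and SEC23B, a coat protein of export vesicles, by 0.20 ± 0.06. The disulfide isomerase PDIA4 fell by 0.30 ± 0.06, the chaperone CALR by 0.24 ± 0.06, the secretory kinase FAM20C by 0.30 ± 0.08 and the tyrosine sulfotransferase TPST2 by 0.26 ± 0.08.

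Of the genes whose products act on fibrinogen or the clot, 12 of 14 listed were tested, and 2 rose, 5 fell and 5 did not pass the test (median -0.12). This is 58.3% called, against 18.9% of all genes. FN1, fibronectin, which is crosslinked to fibrin, rose by 0.65 ± 0.13, and THBS1 by 0.54 ± 0.17. SERPINC1 (antithrombin) fell by 0.95 ± 0.09, with medians of 74.0 units under palmitic acid and 133.8 in control cells, and SERPINF2 (antiplasmin) by 0.94 ± 0.13. Prothrombin, F2, fell by 0.32 ± 0.06 and CPB2, which slows fibrinolysis, by 0.24 ± 0.07. F13B, the carrier subunit of factor XIII, fell by 1.57 ± 0.20 at a low level, with medians of 0.587 units under palmitic acid and 2.52 in control cells.

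Of 18 listed acute phase genes other than the chains, 13 were tested, and 1 rose, 3 fell and 9 did not pass the test (median -0.10). This is 30.8% called, against 18.9% of all genes. HP, haptoglobin, fell by 1.31 ± 0.18, with medians of 132 units under palmitic acid and 321 in control cells, and its near copy HPR makes the split of reads uncertain. HAMP, hepcidin, fell by 1.20 ± 0.15 and A2M by 0.39 ± 0.11, whereas SERPINA3 (antichymotrypsin) rose by 0.65 ± 0.18. C3 had a change of -0.37 ± 0.13 (adjusted p 0.0617) and SERPINA1 of -0.29 ± 0.11 (0.0753). Of 20 listed relatives with a fibrinogen-like domain, 10 were tested, and 0 rose and 2 fell, ANGPTL4 (a lipoprotein lipase inhibitor) by 1.13 ± 0.17 and FGL2 by 0.55 ± 0.17, with a median of -0.04. These 2 of 10 are near the share over all genes, 18.9%. ANGPTL6, next by p, had a change of -0.30 ± 0.17 (adjusted p 0.231).

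Over the 5 lists of regulators, assembly, clot, acute phase and fibrinogen-domain genes, 79 genes were tested, of which 9 rose and 21 fell in the blocked limma fit, where 9.33% of all genes rose and 9.52% fell. Without the block limma called 0 of the 79, with 13 at an unadjusted p under 0.05, as had 1059 of all 13095 tested genes. On recovered reads edgeR called 0 and DESeq2 called 5 (1 up, 4 down), where DESeq2 called 0.825% of all genes. The blocked fit without CC clone 3 holds a single CC clone, so its calls in the lists are not given. The hepatocyte marker list had a median of -0.31 beside these values, and its part in them was not tested.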

How the data were processed

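Total RNA of the 16 libraries was ribosome-depleted and sequenced, per the labels' protocols, and Bowtie2, RSEM 1.3.0, Trimmomatic 0.38, edgeR and build hg38 appear in the submitters' processing notes. The authors deposited a normalised signal for 16558 genes. Its values were whole multiples of 1 read per library (100% at a tolerance of 0.01), so read counts were recovered for edgeR 4.0.16 and DESeq2 1.42.0, which served as alternatives. Values were put in CPM units with the authors' scaling kept, and log2(value + 0.5) was tested with limma 3.58.1 (R 4.3.3, mean-variance trend, two-sided, Benjamini-Hochberg at 0.05) on the 6 group means, for the 13095 genes averaging 1 unit or more. This fit has 10 residual degrees of freedom. An alternative fit added the clone as its block and had 5. The pairing comes from the clone. In a check, deviations from the group means correlated at 0.523 to 0.857 within clones, and in 8 of 8 clones the best partner was its own. Intervals are 95%.

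The members and gene lists were chosen with earlier results of these data known. Named genes are the chains, the nearest 5 profiles, the neighbours, the 3 genes of each list with the smallest p in the blocked fit, and the members behind counts of 5 or fewer. STAT3, SOCS3, C3, SERPINA1 and the regulators that fell other than ONECUT1 were named after their values were seen. Some listed genes are not reported here. The scripts were tested on simulated data.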

Additional observations from a re-analysis of the deposited data

Results flagged for a closer look

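In 15 sets of clone values for the 3 chains (levels, changes and ratios), the highest and lowest of 8 clones were compared with the rest by Dixon's gap ratio, which chance exceeds in about 1 of 20 groups. Both sets that passed involve CC clones. The FGB level of CC clone 1 in control cells, 4820 units, stood apart above the other 7 clones. The FGG change with palmitic acid in CC clone 3, -2.17 on the log2 scale, stood apart below the other 7. Its gap ratio of 0.527 lay just above the limit of 0.526. The FGA and FGB changes of this clone, at gap ratios of 0.497 and 0.366, did not pass.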

How the results depend on the processing

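The palmitic acid estimates of the chains were negative under all alternatives run. Leaving out 1 clone at a time, with or without the replicate block, they ran over genotypes from -1.51 to -0.88 for FGA, -1.74 to -1.36 for FGB and -1.34 to -0.93 for FGG, and within CC from -2.69 to -0.79, -2.43 to -1.29 and -2.17 to -0.95, where 1 clone is left and is assumed to vary like the other groups. Of all genes, 6 were called over genotypes, 2 with a pseudocount of 0.1, 12 without the filter, 2 with a mean of at least 5 units, 2 by edgeR, 108 by DESeq2, 2469 with the replicate block, 2418 by edgeR and 1918 by DESeq2 with it, and 0 to 3753 leaving out 1 clone. The block gave the listed genes' calls: 4 up and 7 down among regulators, 2 and 4 in assembly, 2 and 5 for the clot, 1 and 3 in the acute phase and 2 down among fibrinogen-domain genes.

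Several genotype differences changed sign with single clones, and others kept it. Leaving out 1 clone, GG over CC under palmitic acid ran from -0.46 to 1.06 (FGA), -1.44 to 1.66 (FGB) and -0.41 to 1.69 (FGG), GC over CC from -0.63 to 0.89, -1.63 to 1.47 and -0.79 to 1.32, and GG over GC from -0.50 to 0.86 (FGA) and -0.17 to 0.69 (FGB). In control cells GG over CC ran from -1.52 to 0.43 (FGB) and -0.66 to 0.23 (FGG), GC over CC from -0.97 to 0.28, -1.32 to 0.63 and -0.60 to 0.28, and GG over GC from -1.17 to 0.14, -0.46 to 0.0049 and -0.40 to 0.25. The difference in change ran for GC minus CC from -0.44 to 1.46, -0.31 to 0.84 and -0.18 to 1.04. For GG minus CC it kept its sign, from 0.18 to 2.07 (FGA), 0.084 to 1.23 (FGB) and 0.25 to 1.47 (FGG). For GG minus GC it did too, from 0.26 to 0.91, 0.20 to 0.69 and 0.29 to 0.67. So did FGA for GG over CC in control cells (-1.55 to -0.43). FGG for GG over GC under palmitic acid ran from 0.0041 to 0.82. On recovered reads FGB for GG over CC under palmitic acid was -0.44 by edgeR and -0.44 by DESeq2, and its GC minus CC difference in change -0.093 by edgeR and -0.094 by DESeq2. The cause was not tested.

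Per-length shares moved with the length. With the union of exons FGA was 16.5% under palmitic acid and 16.1% in control cells, FGB 29.6% under palmitic acid, and FGG 53.9% and 48.0%. With FGA-202, FGA was 16.2% and 16.1%. Each clone and treatment has 1 library, so that variation between cultures of a clone was not measured.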
